A study of Homo sapiens with 6 samples.

Results

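Long noncoding RNAs and antisense transcripts were examined in OVCAR8, an ovarian cancer cell line, by RNA-Seq of ribosomal RNA-depleted total RNA. Members were chosen by symbol: names of the form LINC, SNHG, MIR..HG or -AS followed by a number, and MALAT1, NEAT1, GAS5, MEG3, H19, HOTAIR and TUG1, with a deposited value of at least 10 in at least 2 of the 6 samples. Of the 14930 genes listed, 397 matched the names and 87 passed the filter, among 9671 genes of any kind that passed it. These were 25 LINC genes of 104 that matched, 15 SNHG genes of 21, 3 microRNA host genes of 11, 40 antisense genes of 257, and 4 of the 7 single names (MEG3, H19 and HOTAIR were not listed in the values analysed). The filter left 14 members that reached 10 only in the 2 samples of 1 group, which were 7 for DZNep, 6 for control and 1 for shEZH2, and such members had to differ to be kept. Just outside it were 15 symbols with 1 sample at 10 or more, among them SNHG19 and MIR222HG.

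The 3 groups had 2 samples each, all taken at 72 h: control cells (Ctrl) that received the solvent DMSO, cells treated with 5 μM DZNep, and OVCAR8 cells with a doxycycline-inducible hairpin against EZH2 (shEZH2) that received 1 μg/mL doxycycline. The GEO text writes mM and mg/mL for these doses, while the methods give the units used here. The shEZH2 group rests on 1 hairpin sequence, and no source used here says whether the control cells carried a hairpin or received doxycycline. DZNep (3-deazaneplanocin A) blocks S-adenosylhomocysteine hydrolase and so limits many methyltransferases, and it lowers EZH2 protein. The groups were compared to see which of these RNAs differ from control after each way of lowering EZH2, and which differ between them.

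EZH2 is the catalytic subunit of Polycomb repressive complex 2, which methylates lysine 27 of histone H3, a mark of silenced genes. Long noncoding RNAs act in several ways: NEAT1 builds the nuclear bodies called paraspeckles, MALAT1 sits in nuclear speckles, and some are only the carriers of smaller RNAs. The SNHG genes, GAS5 and a few others carry small nucleolar RNAs (snoRNAs) in their introns. SnoRNAs guide chemical modification of ribosomal and other RNAs, and the spliced host transcript is often short-lived because the translation-dependent surveillance known as nonsense-mediated decay removes it. Antisense and divergent genes start close to a protein-coding gene or run through it on the opposite strand.

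The microRNAs carried by the 3 host genes and the starts shared by divergent pairs are shown first, because these sequences say what each host carries and how close a divergent pair lies. MIRLET7BHG (chr22:46053869-46113928, GRCh38, plus strand) encloses let-7a-3, let-7b, miR-3619 and miR-4763. MIR17HG encloses the miR-17 to miR-92a cluster on chromosome 13 and MIR22HG encloses miR-22 on chromosome 17. The mature microRNAs below come from RefSeq (GRCh38.p14), written 5′ to 3′ with the seed, bases 2 to 8, in capitals. Let-7a and let-7b share 1 seed, miR-17 and miR-20a share another, and miR-19a and miR-19b share another. None of these mature RNAs was measured here.
hsa-let-7a-5p: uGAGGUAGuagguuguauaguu
hsa-let-7b-5p: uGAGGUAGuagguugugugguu
hsa-miR-17-5p: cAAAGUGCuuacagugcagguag
hsa-miR-20a-5p: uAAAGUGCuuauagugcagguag
hsa-miR-19a-3p: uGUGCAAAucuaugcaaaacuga
hsa-miR-19b-3p: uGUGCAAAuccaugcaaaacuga
hsa-miR-92a-3p: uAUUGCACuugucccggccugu
hsa-miR-22-3p: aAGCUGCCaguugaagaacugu

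Head-to-head pairs, in which the 2 genes start on opposite strands within 1000 bases of each other, made up 17 of the 40 antisense members, and the other 23 overlapped their partner in another way (gene models of GENCODE v44). The sequences between the starts are given for 5 such pairs whose antisense member was called with DZNep, from GRCh38, on the strand of the sense partner, with each CG dinucleotide in capitals. They lie at chr22:45163811-45163925 (plus strand) for NUP50, chr15:44537046-44537125 (plus strand) for EIF3J, chr2:3558333-3558419 (minus strand) for RNASEH1, chr21:32393012-32393095 (minus strand) for URB1 and chr3:196942594-196942674 (minus strand) for NCBP2. Only pairs with close starts that do not overlap were taken, so their short length was set by that choice. All 5 are rich in CG, with 18, 9, 11, 11 and 13 CG dinucleotides and a GC content of 73.9%, 70.0%, 70.1%, 78.6% and 72.8%, in that order. Pairs whose antisense member was not called with DZNep were also rich in G and C. The GC content was 84.0% for PRKCQ, 79.0% for TPT1, 76.9% for BAIAP2 and 70.9% for UBA6.
NUP50-AS1 and NUP50: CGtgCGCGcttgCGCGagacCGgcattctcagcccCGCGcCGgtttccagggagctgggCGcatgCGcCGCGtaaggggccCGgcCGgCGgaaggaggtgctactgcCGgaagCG
EIF3J-AS1 and EIF3J: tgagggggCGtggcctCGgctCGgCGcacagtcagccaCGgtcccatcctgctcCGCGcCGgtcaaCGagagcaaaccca
RNASEH1-AS1 and RNASEH1: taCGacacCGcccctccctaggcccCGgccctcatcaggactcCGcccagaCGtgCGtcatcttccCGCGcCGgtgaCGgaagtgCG
URB1-AS1 and URB1: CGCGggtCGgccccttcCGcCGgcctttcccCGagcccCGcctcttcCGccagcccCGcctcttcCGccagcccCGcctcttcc
NCBP2-AS2 and NCBP2: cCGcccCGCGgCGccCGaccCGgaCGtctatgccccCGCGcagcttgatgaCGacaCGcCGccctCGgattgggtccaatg

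The deposited table gives 1 whole number per gene and sample, and each sample adds up to nearly the same total (999956 to 1000068), so the values are scaled and rounded scores and not reads. How many reads lie behind a value is unknown, and rounding limits values of a few units. The 87 members held 0.4% to 0.92% of each sample's total and the 10 highest genes 21.9% to 28.7%, RN7SL1 being the highest in every sample. Of 10 markers of serous ovarian carcinoma, 7 were listed and 4 passed the filter. Those 4 were the keratin genes KRT7, KRT8 and KRT18 and the ovarian lineage factor PAX8 (10 to 19). WT1, EPCAM and CDH1 were listed but did not pass, and MUC16, MECOM and SOX17 were not listed. With DZNep KRT8 rose by 1.77 on the log2 scale (adjusted p = 0.000851) and KRT18 by 1.66 (adjusted p = 0.00126) and PAX8 fell by 0.68 (adjusted p = 0.0277), by limma, and their part in any result was not tested. Of the markers of leukocytes, endothelial cells and fibroblasts, CD68 and COL1A1 (9 to 16) alone passed it. CD68, which many cell types use in lysosomes, was 70 and 65 in control, 18 and 15 with DZNep, and 32 and 28 with shEZH2, and the part of CD68 was not tested either. Replicates of shEZH2 lay much closer together than those of the other groups: over the members, the standard deviation of the replicate difference (log2) was 0.361 for control, 0.355 for DZNep and 0.166 for shEZH2. No source used here says that replicates were separate cultures, so p-values measure only the spread between these samples.

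EZH2, the targeted gene, had values of 36 and 42 in control, 26 and 26 under DZNep, and 18 and 18 in the shEZH2 samples. Both treated groups lay below both control samples. On the scale of log2(value + 1) after TMM scaling, which is used for every change below, EZH2 fell by 0.63 (standard error 0.18) with DZNep, with an adjusted p = 0.0255, and by 1.12 (standard error 0.18) with shEZH2, with an adjusted p = 0.016, in limma over every tested gene with n = 2 a group. In bulk RNA, fewer cells with a transcript and less of it per cell cannot be told apart. In limma the DZNep change was not past 0.05 without Ctrl replicate 2 (-0.60, adjusted p = 0.0832), without DZNep replicate 2 (-0.51, adjusted p = 0.0734) or without either shEZH2 sample (adjusted p = 0.0913 and 0.0915), and the shEZH2 change was not past it without either shEZH2 sample (adjusted p = 0.206 and 0.17). Polycomb repressive complex 2 had 11 tested subunits, of which 2 fell with DZNep, EZH2 and the accessory subunit PHF1 (-1.85, adjusted p = 0.000547, from limma), and 1 with shEZH2, EZH2. Of all tested genes, 20.4% were called lower with DZNep and 4.53% with shEZH2. The share of subunits that fell with DZNep was near that background.

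With DZNep, 20 of the 87 members (23.0%) rose and 27 (31.0%) fell at an adjusted p under 0.05. Among the 9671 tested genes of any kind, 22.4% were called higher and 20.4% lower, so the share of members called higher was near the background. Of these calls, 6 in each direction were members that reached 10 only in the group where they were high and so had to differ. Without all 14 members of that kind, 14 of 73 rose (19.2%) and 21 fell (28.8%), beside 21.4% and 19.4% of the tested genes treated alike, a count added after the data were seen. The thresholds in the paper's methods (a change of more than 1 on the log2 scale in either direction, with P under 0.05, taken here as unadjusted) called 14 members higher and 21 lower, where 10.5% and 11.8% of all tested genes were called. The median log2 fold change of the members was -0.07, beside 0.02 over all tested genes, and their median absolute change was 0.73 beside 0.53. Leaving out each sample in turn kept 35 of the 47 calls each time, and the other 12 were ADIRF-AS1, DHRS4-AS1, GABPB1-AS1, GAS5, LINC00152, LINC00969, LINC01578, MALAT1, OIP5-AS1, SNHG17, SNHG18 and SNHG7. The fewest members were called higher without DZNep replicate 1 (15) and the fewest lower without Ctrl replicate 2 (23).

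**Figure D1:**
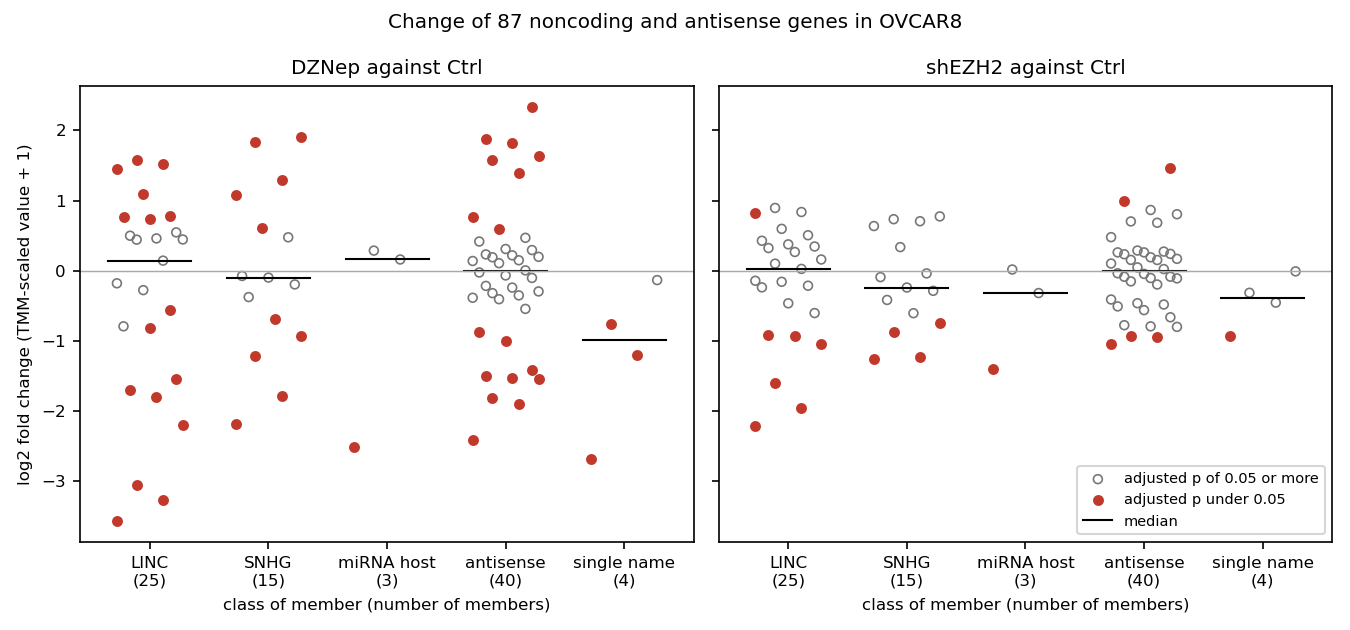
Log2 fold change (vertical axis) of the 87 members by class of name (horizontal axis, number of members in brackets), for DZNep against Ctrl on the left and shEZH2 against Ctrl on the right. Filled points have an adjusted p under 0.05 from limma and black lines are class medians. DZNep changes run from -3.56 (LINC00162) to 2.34 (MMP24-AS1) and shEZH2 changes from -2.21 (LINC00942) to 1.46 (MMP24-AS1).

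The members that fell most with DZNep were intergenic RNAs and NEAT1. LINC00162 (RefSeq now names it PICSAR, chr21:44999208-45004727, minus strand) had values of 41 and 36 in control, 3 and 2 with DZNep, and 9 and 10 with shEZH2. LINC00707, on chromosome 10, had values of 36 and 27, 3 and 2, and 11 and 9 in the same order. LINC00942, on chromosome 12, had values of 52 and 49, 5 and 6, and 11 and 10. In all of these the 3 groups did not overlap, with control highest, DZNep lowest and shEZH2 between them. The log2 fold changes with DZNep were -3.56 for LINC00162 (standard error 0.26, adjusted p = 8.24e-05), -3.27 for LINC00707 (standard error 0.28, adjusted p = 0.000172) and -3.06 for LINC00942 (standard error 0.19, adjusted p = 5.88e-05), by limma. With shEZH2 they were -1.96 (adjusted p = 0.00911), -1.60 (adjusted p = 0.0187) and -2.21 (adjusted p = 0.00281), by limma. Values of 2 and 3 carry a large rounding error, so the size of the first pair of DZNep changes is uncertain.

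NEAT1, the scaffold of paraspeckles (chr11:65422774-65445540, plus strand), had values of 411 and 737 in control, 85 and 94 with DZNep, and 313 and 285 with shEZH2. The DZNep samples lay far below the others, and the shEZH2 samples lay below both control samples, which themselves differed widely. NEAT1 fell by 2.68 with DZNep (standard error 0.23, adjusted p = 0.000161, limma), and that call held under all 18 alternatives. Its change with shEZH2 was -0.93 (standard error 0.23, adjusted p = 0.0465, limma), a call lost under 9 of 18 alternatives, including without Ctrl replicate 2 and without either shEZH2 sample (adjusted p up to 0.286). MALAT1, which lies beside NEAT1 on chromosome 11, had values of 1845 and 4435 in control, 973 and 1760 with DZNep, and 2468 and 2297 with shEZH2. The DZNep samples lay below both control samples, whereas the shEZH2 samples lay between them. The log2 fold change of MALAT1 was -1.20 with DZNep (standard error 0.35, adjusted p = 0.027, limma) and -0.31 with shEZH2 (adjusted p = 0.595, limma), and the DZNep call was lost without Ctrl replicate 2, without DZNep replicate 1 and with the values as deposited (adjusted p up to 0.123).

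Proteins of paraspeckles were counted beside NEAT1. Of 21 tested genes, 3 rose and 5 fell with DZNep (background 22.4% and 20.4%), with a median log2 fold change of 0.08, and 1 rose and 1 fell with shEZH2. RBM14 rose from 26 and 27 in control to 109 and 91 with DZNep and 64 and 59 with shEZH2, and DAZAP1 fell from 140 and 151 to 45 and 46 and to 79 and 80. These 2 genes were the ones called with shEZH2.

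LINC00963, on chromosome 9, had values of 69 and 64 in control, 14 and 15 with DZNep, and 33 and 33 with shEZH2. NUP50-AS1 had values of 25 and 19, 3 and 4, and 11 and 10. MIRLET7BHG had values of 16 and 15, 2 and 2, and 6 and 5. Again the groups did not overlap, and control lay highest and DZNep lowest. The DZNep changes were -2.19 for LINC00963 (standard error 0.18, adjusted p = 0.000157), -2.42 for NUP50-AS1 (standard error 0.23, adjusted p = 0.000262) and -2.52 for MIRLET7BHG (standard error 0.20, adjusted p = 0.000147), by limma. MIRLET7BHG passed the filter through its control samples alone. With shEZH2 the changes were -1.04 for LINC00963 (adjusted p = 0.0192), -1.04 for NUP50-AS1 (adjusted p = 0.035) and -1.39 for MIRLET7BHG (adjusted p = 0.0135), by limma.

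The other members named as microRNA hosts (MIR..HG) were not called. By position, 8 members enclose a microRNA hairpin. Of those with other names, LINC00472 (0.79) and LINC01057 (1.45) rose with DZNep, GABPB1-AS1 (-1.01) and LINC00152 (-0.56) fell, and SNHG20 was not called. LINC00472 and LINC01057 passed the filter in DZNep cells alone and so had to differ. Of all tested genes, 22.4% were called higher and 20.4% lower with DZNep. MIR17HG, the host of the miR-17 to miR-92a cluster, had values of 10 and 10 in control, 10 and 17 with DZNep, and 11 and 10 with shEZH2. The DZNep change of MIR17HG was 0.29 (95% interval -0.22 to 0.80, adjusted p = 0.326, limma). MIR22HG had values of 13 and 14, 15 and 17, and 11 and 11, with a change of 0.16 with DZNep (95% interval -0.26 to 0.58, adjusted p = 0.509, limma) and -0.32 with shEZH2 (95% interval -0.74 to 0.10, adjusted p = 0.293, limma). Of 12 tested genes for processing of microRNAs, the RNA helicase DDX17 rose with DZNep (1.67, adjusted p = 0.000198, limma), and AGO4, an Argonaute protein (-1.40, adjusted p = 0.00127, limma), and PRKRA (-0.62, adjusted p = 0.0277, limma) fell. With shEZH2 only DDX17 was called in this list (0.97, adjusted p = 0.0139, limma). The background for these 12 genes was 22.4% higher and 20.4% lower with DZNep, and 3.9% and 4.53% with shEZH2.

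RefSeq places at least 1 snoRNA or the related scaRNA inside 19 members: the 15 SNHG genes, GAS5, LRRC75A-AS1 (now SNHG29), EPB41L4A-AS1 and THAP9-AS1. With DZNep 5 of the 19 rose, 8 fell and 6 were not called, and with shEZH2 6 fell and 13 were not called. The background was 22.4% higher and 20.4% lower with DZNep and 4.53% lower with shEZH2, so the share of hosts called higher with DZNep was near it. Their median log2 fold change was -0.19 with DZNep and -0.29 with shEZH2, beside -0.01 and -0.02 for the other 68 members and 0.02 and -0.01 for all tested genes. The snoRNAs themselves were not among the members.

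SNHG6, the host of SNORD87 on chromosome 8, had values of 189 and 212 in control, 41 and 51 with DZNep, and 84 and 88 with shEZH2. SNHG8, the host of SNORA24 on chromosome 4, had values of 96 and 85, 28 and 26, and 38 and 41. LRRC75A-AS1, the host of SNORD49A, SNORD49B and SNORD65 on chromosome 17, had values of 523 and 462, 187 and 176, and 257 and 272. In each the groups did not overlap, and the order was control, shEZH2, DZNep from high to low. The changes with DZNep and shEZH2 were -2.18 (standard error 0.15, adjusted p = 7.94e-05) and -1.26 (adjusted p = 0.00794) for SNHG6, -1.78 (standard error 0.20, adjusted p = 0.000547) and -1.22 (adjusted p = 0.0169) for SNHG8, and -1.50 (standard error 0.19, adjusted p = 0.000825) and -0.94 (adjusted p = 0.0279) for LRRC75A-AS1, by limma.

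SNHG12, the host of SNORA16A, SNORA44, SNORA61 and SNORD99, had values of 62 and 55 in control, 27 and 25 with DZNep, and 32 and 33 with shEZH2. SNHG5, the host of SNORD50A and SNORD50B, had values of 393 and 439, 215 and 245, and 264 and 249. EPB41L4A-AS1, the host of SNORA13, had values of 43 and 49, 17 and 15, and 23 and 26. For all 3 genes the treated samples lay below the control samples with no overlap. The DZNep changes were -1.21 (SNHG12), -0.92 (SNHG5) and -1.53 (EPB41L4A-AS1), with adjusted p-values of 0.00283, 0.002 and 0.00104 from limma, and the shEZH2 changes -0.87, -0.74 and -0.93, with adjusted p-values of 0.0415, 0.0251 and 0.0353 from limma. The shEZH2 call of each was lost without either shEZH2 sample, and also without Ctrl replicate 1 for SNHG12 and without Ctrl replicate 2 for SNHG5 and EPB41L4A-AS1.

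GAS5, whose introns hold 11 snoRNA genes, had values of 297 and 257 in control, 172 and 169 with DZNep, and 204 and 213 with shEZH2. SNHG7, the host of SNORA17A and SNORA17B, had values of 63 and 60, 44 and 36, and 42 and 41. Treated samples were lower than control in both genes, but the tests passed only with DZNep: -0.76 for GAS5 (standard error 0.19, adjusted p = 0.0135) and -0.68 for SNHG7 (standard error 0.22, adjusted p = 0.0349), by limma. With shEZH2 the changes were -0.45 (adjusted p = 0.163) and -0.60 (adjusted p = 0.115), by limma, and the direct comparison of shEZH2 with DZNep called neither gene (0.31, adjusted p = 0.329, and 0.08, adjusted p = 0.853, by limma). The DZNep call of GAS5 was lost without Ctrl replicate 1 (adjusted p up to 0.0516), and that of SNHG7 without Ctrl replicate 1, DZNep replicate 2 or either shEZH2 sample (adjusted p up to 0.123).

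Higher levels with DZNep were seen in a different set of hosts. SNHG15, the host of SNORA9 on chromosome 7, had values of 38 and 29 in control, 143 and 124 with DZNep, and 53 and 55 with shEZH2. SNHG10, the host of the scaRNA gene SCARNA13 on chromosome 14, had values of 5 and 4, 20 and 19, and 7 and 10. Both DZNep samples lay above all others in either gene. SNHG15 rose by 1.90 (standard error 0.24, adjusted p = 0.00076) and SNHG10 by 1.84 (standard error 0.26, adjusted p = 0.00121), by limma. With shEZH2 the changes were 0.64 (adjusted p = 0.127) and 0.73 (adjusted p = 0.111), by limma.

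SNHG11 had values of 8 and 7 in control, 24 and 18 with DZNep, and 15 and 13 with shEZH2. SNHG17 had values of 11 and 8, 24 and 20, and 17 and 16. SNHG18 had values of 5 and 7, 10 and 10, and 8 and 8, so that it passed the filter at the limit and in DZNep cells alone. They rose with DZNep by 1.30 (adjusted p = 0.00543), 1.07 (adjusted p = 0.0126) and 0.61 (adjusted p = 0.046), by limma. The SNHG17 call was lost without Ctrl replicate 2 or DZNep replicate 1 (adjusted p up to 0.0541). That of SNHG18 was lost under 11 of 17 alternatives, among them the omission of any sample except DZNep replicate 2.

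No change was called for SNHG1, SNHG3, SNHG14, SNHG16, SNHG20 and THAP9-AS1. SNHG1 had values of 152 and 162 in control, 144 and 165 with DZNep, and 134 and 132 with shEZH2, and the 95% interval of its DZNep change ran from -0.44 to 0.25. For SNHG16, with values of 329 and 318, 304 and 343, and 290 and 277, it ran from -0.43 to 0.28. SNHG3 had values of 169 and 125, 147 and 121, and 115 and 110, with an interval from -0.77 to 0.38. SNHG14, a long host that carries the SNORD115 and SNORD116 arrays, had values of 60 and 78, 50 and 61, and 70 and 63, and SNHG20 had 10 and 8, 14 and 13, and 9 and 9.

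Proteins that bind snoRNAs and those that act in nonsense-mediated decay were counted as the other genes of this pathway. Of 15 tested factors of nonsense-mediated decay, 7 rose with DZNep and 1 with shEZH2, and the median changes were 0.28 and 0.21, where 22.4% and 3.9% of all tested genes were called higher. The same background (22.4% higher and 20.4% lower with DZNep) applies to the lists that follow. SMG5 had values of 74 and 55 in control, 317 and 275 with DZNep, and 162 and 149 with shEZH2, and rose by 2.12 (adjusted p = 0.000489, limma) and 1.22 (adjusted p = 0.0243, limma). SMG8 rose by 1.15 (adjusted p = 0.00153) and MAGOH, a subunit of the exon junction complex, by 0.74 (adjusted p = 0.0177) with DZNep, by limma. Of 15 tested snoRNP proteins, which assemble with snoRNAs, 5 rose and 1 fell with DZNep. SHQ1 rose by 1.26 (adjusted p = 0.00118), ZNHIT3 by 1.12 (adjusted p = 0.0019) and NUFIP1 by 0.99 (adjusted p = 0.00945), while RUVBL1 fell by 0.77 (adjusted p = 0.00756), by limma. Of 20 tested genes of the nuclear exosome and its adaptors, which degrade many nuclear RNAs, 4 rose and 4 fell with DZNep. Whether these genes have a part in the changes of the hosts was not tested.

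Start sites of the hosts were looked at for a pyrimidine run, a C followed by 5 or more letters that are C or T on the gene's strand, in the 60 bases around each RefSeq start. Such a run at the first base of the transcript marks many genes whose translation follows growth signals. Here the run was counted anywhere in the window, before or after the start. It was present in 10 of 17 hosts with a window (58.8%), 24 of 56 other members (42.9%) and 40.4% of 35116 promoters of all genes. A member counted if any of its windows held the run, whereas the last share is over single promoters, so the shares are not fully alike. The windows of SNHG12 and SNHG7, which fell with DZNep, and of SNHG17, which rose, are shown with the run in capitals (GRCh38.p14, all on the minus strand, chr1:28581844-28581903, chr9:136728155-136728214 and chr20:38435299-38435358). In SNHG7 and SNHG17 the run lies wholly before the RefSeq start, and in SNHG12 it spans the start. The run occurred in hosts that moved in either direction, and matching letters are not evidence of its use.
SNHG12: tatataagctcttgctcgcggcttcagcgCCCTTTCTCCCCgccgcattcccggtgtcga
SNHG7: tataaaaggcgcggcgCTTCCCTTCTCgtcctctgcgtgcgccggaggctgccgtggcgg
SNHG17: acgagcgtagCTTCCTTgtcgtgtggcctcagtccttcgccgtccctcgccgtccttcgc

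Among the 40 antisense members, 8 rose, 9 fell and 23 were not called with DZNep, and 2 rose, 3 fell and 35 were not called with shEZH2. With DZNep these shares were near the background of 22.4% and 20.4%, and with shEZH2 the background was 3.9% and 4.53%. Their median change was -0.01 in both contrasts. RSEM assigned the reads, but whether strand was used in that step is not stated in the sources, so reads of an antisense gene and of a partner that it overlaps may not have been told apart.

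MMP24-AS1 had the highest change of all members. RefSeq now names it MMP24OS and types it as protein coding (chr20:35201745-35278131, minus strand). It had values of 5 and 4 in control, 30 and 26 with DZNep, and 15 and 14 with shEZH2, so the groups did not overlap. It rose by 2.34 with DZNep (standard error 0.24, adjusted p = 0.000327) and by 1.46 with shEZH2 (standard error 0.24, adjusted p = 0.0159), by limma. ZNF674-AS1, on the X chromosome, had values of 2 and 2, 11 and 10, and 4 and 4, and rose by 1.88 with DZNep (standard error 0.21, adjusted p = 0.000483, limma), with a shEZH2 change of 0.70 (adjusted p = 0.0736, limma). It passed the filter in DZNep cells alone.

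Of the 40 antisense members, 26 had a sense partner that was also tested. With DZNep 13 of these antisense genes and 8 partners were called, where 22.4% of all tested genes were called higher and 20.4% lower. Both genes were called in 2 pairs, each time in opposite directions. NCBP2-AS2 rose from 10 and 8 in control to 26 and 27 with DZNep (1.40, adjusted p = 0.00191, limma) while NCBP2, a subunit of the nuclear cap-binding complex whose start lies 80 bases away, had 40 and 49 in control and 25 and 35 with DZNep and fell by 0.64 (adjusted p = 0.0225, limma). RefSeq types NCBP2-AS2 as protein coding. DHRS4-AS1 rose from 12 and 13 to 18 and 23 (0.59, adjusted p = 0.0308, limma) while DHRS4, a retinal reductase gene that it overlaps, fell by 2.30 (adjusted p = 0.000154, limma). The call of DHRS4-AS1 was lost without any 1 of the 6 samples (adjusted p up to 0.117, limma). Opposite calls were made in 1 pair without Ctrl replicate 1 or DZNep replicate 2, and in 0 pairs by limma without Ctrl replicate 2, DZNep replicate 1 or either shEZH2 sample. Calls in the same direction were made in 1 pair without Ctrl replicate 1, DZNep replicate 1 or DZNep replicate 2. With shEZH2, 3 antisense genes and 4 partners were called, all in different pairs, where 3.9% of all tested genes were called higher and 4.53% lower.

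Among the 13 tested head-to-head pairs, 8 antisense genes and 4 partners were called with DZNep, with both called in 1 pair. Of all tested genes, 22.4% were called higher and 20.4% lower. The difference between the genes of a pair was not tested. In 3 pairs the partner alone was called: BAIAP2 (-1.09, adjusted p = 0.0154), MAPKAPK5 (-0.89, adjusted p = 0.00557) and TPT1 (-0.89, adjusted p = 0.00427) fell, beside changes of -0.35, -0.32 and -0.22 for BAIAP2-AS1, MAPKAPK5-AS1 and TPT1-AS1, by limma. In others the antisense gene alone was called. NUP50-AS1 fell by 2.42 with DZNep, and NUP50, a component of the nuclear pore, changed by -0.11 (95% interval -0.62 to 0.41, adjusted p = 0.722, limma). EIF3J-AS1 had values of 13 and 10 in control, 3 and 2 with DZNep, and 7 and 6 with shEZH2, and fell by 1.89 with DZNep (adjusted p = 0.00132, limma), beside 0.19 for EIF3J, a translation initiation factor (95% interval -0.42 to 0.81). RNASEH1-AS1 had values of 10 and 11, 4 and 3, and 6 and 7, and fell by 1.42 (adjusted p = 0.00249, limma), beside -0.06 for RNASEH1 (95% interval -0.47 to 0.36). URB1-AS1 had values of 3 and 3, 13 and 11, and 6 and 7, and rose by 1.64 (adjusted p = 0.00121, limma), beside 0.34 for URB1, a ribosome biogenesis gene (95% interval -0.10 to 0.77). TMPO-AS1, with 19 and 16, 4 and 5, and 10 and 10, fell by 1.82 (adjusted p = 0.000544, limma), beside -0.64 for TMPO (adjusted p = 0.0683, limma). EIF3J-AS1, RNASEH1-AS1 and URB1-AS1 passed the filter through 1 group alone and so had to differ, which their partners did not, so these 3 pairs show nothing about the pairing. Without the 5 pairs of that kind among all 26, the antisense gene alone was called in 7, the partner alone in 6 and both in 2 of 21. Across the 26 pairs the changes of antisense gene and partner had a Pearson correlation of 0.02 with DZNep and 0.13 with shEZH2 (Spearman 0.04 and 0.05), a description over pairs that share the same samples.

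With shEZH2 against control, 3 of the 87 members (3.45%) rose and 15 (17.2%) fell at the same threshold. The background over the tested genes was 3.9% called higher and 4.53% called lower. Of the members that fell, LINC00664 and MIRLET7BHG passed the filter through control alone and so had to differ. Without the 14 members that passed through 1 group alone, 3 of 73 rose (4.11%) and 13 fell (17.8%). The tested genes treated alike gave 3.69% and 3.73%, a count added after the data were seen. Over all 87 members, the paper's thresholds called 1 member higher and 8 lower, where 2.27% and 3.03% of tested genes were called. All 18 members called with shEZH2 were also called in the same direction with DZNep, and both contrasts use the same control samples. With DZNep, 22.4% of all tested genes were called higher and 20.4% lower. The overlap was not counted over all tested genes, so it cannot be read as a trait of the members. Among the 3 that rose were MMP24-AS1 and LINC01006, and the values of LINC01006 were 16 and 16 in control, 38 and 36 with DZNep, and 31 and 29 with shEZH2 (0.82, standard error 0.19, adjusted p = 0.0422, limma). The 15 that fell were EPB41L4A-AS1, LINC00162, LINC00346, LINC00664, LINC00707, LINC00942, LINC00963, LRRC75A-AS1, MIRLET7BHG, NEAT1, NUP50-AS1, SNHG5, SNHG6, SNHG8 and SNHG12.

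These calls depended on having both shEZH2 samples. With their mean entered as a single sample, as it should be if both came from 1 culture, limma called 0 members higher and 1 lower (7 and 17 at an unadjusted P under 0.05). Without shEZH2 replicate 1 it called 0 and 1 (7 and 16 unadjusted), and without shEZH2 replicate 2 it called 0 and 2 (7 and 17 unadjusted). Without Ctrl replicate 2 it called 1 and 11, without Ctrl replicate 1 it called 8 and 12, and without either DZNep sample 8 were called higher. With the values as deposited it called 9 and 14, and the share called higher among all called genes went from 46.3% to 66% with that scaling. LINC00942 was the only one of the 18 called under all 18 alternatives (adjusted p up to 0.0208, limma).

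Compared directly, 12 members (13.8%) were higher and 5 (5.75%) lower in shEZH2 than in DZNep cells, beside 4.88% and 4.42% of the tested genes. Of those lower, LINC01057 and ZNF674-AS1 passed the filter in DZNep cells alone and so had to differ. Without the 14 members that passed through 1 group alone, 9 of 73 were higher (12.3%) and 3 lower (4.11%). The tested genes treated alike gave 4.45% and 3.74%. Over all 87 members, the paper's thresholds called 8 and 4, beside 3.42% and 2.1%. The largest difference was that of NEAT1, 1.75 higher in shEZH2 cells (standard error 0.23, adjusted p = 0.00658, limma), and it was the only one of the 17 called under all 18 alternatives. LINC00707 (1.67, adjusted p = 0.0147), LINC00162 (1.61, adjusted p = 0.0123), NUP50-AS1 (1.38, adjusted p = 0.0144), LINC00963 (1.16, adjusted p = 0.0124) and MIRLET7BHG (1.12, adjusted p = 0.0189) followed, by limma. SNHG15 (-1.26, adjusted p = 0.0208) and ZNF674-AS1 (-1.18, adjusted p = 0.0174) were lower in shEZH2 cells, by limma. With the shEZH2 samples counted as 1, or without shEZH2 replicate 1 or 2, limma called 1 member higher and 0 lower (unadjusted P under 0.05 in 14 and 6, 14 and 8, and 14 and 8). Without DZNep replicate 1 it called 12 and 1, and without any 1 of the Ctrl samples or DZNep replicate 2 it called 8 lower. The overlap with DZNep against control, a comparison that uses the same DZNep samples, was not counted over all tested genes. Of the 17 members, 16 were also called for DZNep against control. The other, DLGAP1-AS2, had values of 7 and 7 in control, 4 and 7 with DZNep, and 11 and 10 with shEZH2, and passed the filter in shEZH2 cells alone.

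Some members differed between replicates in the same way in both groups. MALAT1, TUG1, OIP5-AS1, GABPB1-AS1, THAP9-AS1 and LINC01296 were higher in replicate 2 than in replicate 1 by more than 0.5 (log2) in both control and DZNep cells, and LINC00707 and SNHG3 were lower in replicate 2 by more than 0.5 in both. TUG1 had values of 31 and 55 in control, 30 and 52 with DZNep, and 44 and 41 with shEZH2, and its DZNep change was -0.13 (95% interval -0.75 to 0.48, adjusted p = 0.711, limma). OIP5-AS1 had values of 46 and 84, 25 and 50, and 47 and 43, and its DZNep call (-0.87, adjusted p = 0.048, limma) was lost under 11 of 18 alternatives, among them the omission of Ctrl replicate 2, of DZNep replicate 1 or of either shEZH2 sample (adjusted p up to 0.22). GABPB1-AS1 had values of 19 and 32, 9 and 17, and 20 and 18, with a call (-1.01, adjusted p = 0.0207, limma) lost without Ctrl replicate 2 or DZNep replicate 1. The shEZH2 samples showed no such difference in any of these 6 higher members. Over the 87 members, the deviation of each replicate from its group mean correlated at 0.65 between same-numbered control and DZNep samples and at -0.06 between control and shEZH2 samples, a description across genes. Leaving out 1 control or DZNep sample leaves its same-numbered counterpart unmatched, and the part of this in the lost calls was not tested.

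**Figure D2:**
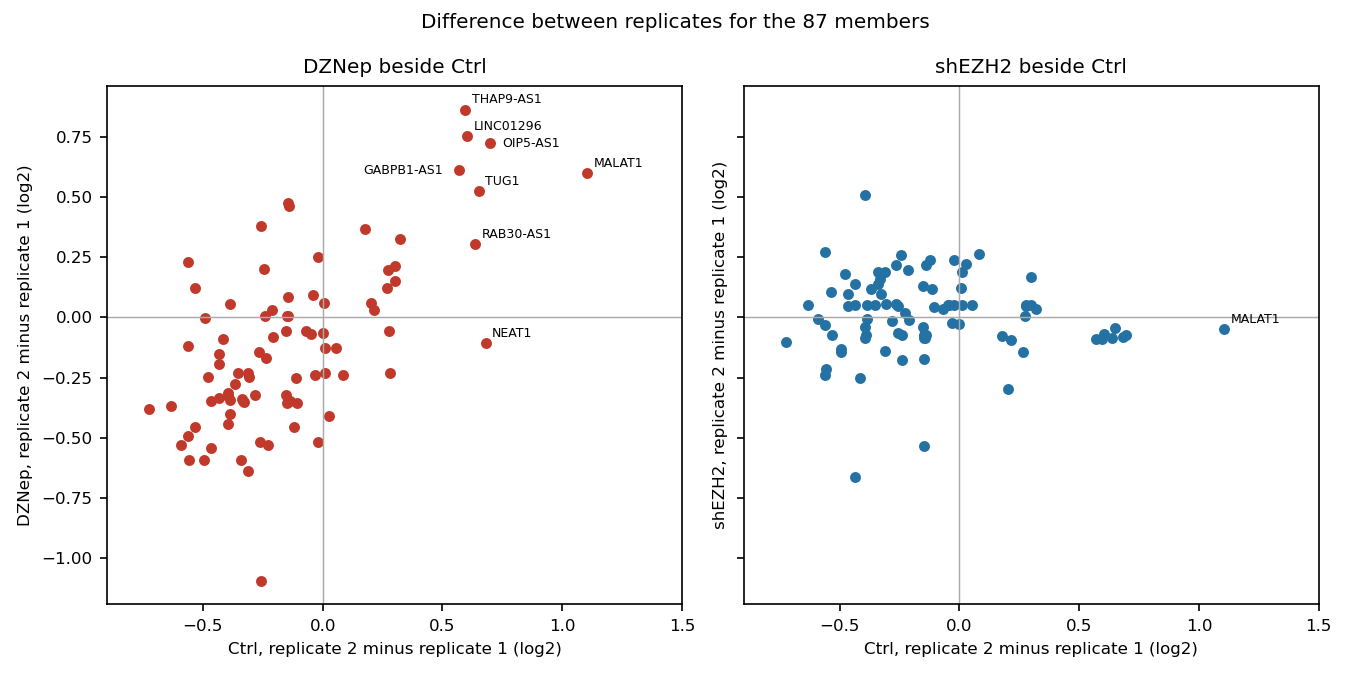
Replicate 2 minus replicate 1 (log2) of the 87 members, control on the horizontal axis and DZNep (left) or shEZH2 (right) on the vertical axis. Members in the upper right of the left panel were higher in replicate 2 of both groups, and the shEZH2 points spread less, with a standard deviation of 0.166 against 0.355 for DZNep.

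Names of the members are older than current annotation: 27 of 87 have another RefSeq symbol now, and 61 were found in GENCODE v44 by their own symbol and 86 by either. RefSeq types 76 members as long noncoding, 2 as pseudogenes and 8 as protein coding (LINC00094, LINC00116, LINC00493, LINC00998, LINC01420, MMP24-AS1, NCBP2-AS2 and TUG1). Of these 8, MMP24-AS1 and NCBP2-AS2 rose with DZNep and the others were not called. Of the other 79 members 18 rose and 27 fell, where 22.4% and 20.4% of all tested genes were called higher and lower. In both sets the share called higher was near that background. LINC00152 (now CYTOR), NUTM2A-AS1, NUTM2B-AS1 and LINC01296 have near-identical copies elsewhere in the genome, and how reads were divided among copies is not stated, so their values are uncertain. LINC00152, with 70 and 63 in control, 47 and 47 with DZNep, and 70 and 70 with shEZH2, was called with DZNep (-0.56, adjusted p = 0.0415, limma), and the call was lost without Ctrl replicate 1, DZNep replicate 2 or either shEZH2 sample. LINC00657 (now NORAD), a cytoplasmic RNA that binds Pumilio proteins, had values of 258 and 326, 217 and 334, and 271 and 247, and was not called (-0.18, 95% interval -0.59 to 0.23, adjusted p = 0.449, limma).

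Of the 25 LINC members 7 rose and 9 fell with DZNep, and 1 rose and 6 fell with shEZH2. The background was 22.4% and 20.4% with DZNep and 3.9% and 4.53% with shEZH2, so the shares called higher were near it. LINC00665 had values of 26 and 22 in control, 81 and 73 with DZNep, and 46 and 44 with shEZH2, and rose by 1.57 with DZNep (standard error 0.21, adjusted p = 0.00105, limma), with a shEZH2 change of 0.84 (adjusted p = 0.051, limma). PCBP1-AS1, an antisense member, had values of 10 and 8, 29 and 31, and 22 and 13, and rose by 1.57 with DZNep (standard error 0.27, adjusted p = 0.00296, limma). LINC00346 (now PRECSIT) had values of 38 and 33, 10 and 10, and 19 and 19, and fell by 1.79 with DZNep and by 0.91 with shEZH2 (adjusted p = 0.000543 and 0.037, limma). The 40 members not called with DZNep had changes between -0.79 and 0.55.

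Other noncoding RNAs, whose names the rule does not cover, were counted for comparison. Of 11 tested, 4 rose and 4 fell with DZNep, and 1 fell with shEZH2. Of all tested genes, 22.4% were called higher and 20.4% lower with DZNep, and 3.9% and 4.53% with shEZH2. BCYRN1, a short RNA polymerase III transcript, had values of 4 and 3 in control, 33 and 24 with DZNep, and 9 and 8 with shEZH2, and rose by 2.64 with DZNep (adjusted p = 0.000384, limma). UCA1 had values of 119 and 102, 43 and 33, and 43 and 36, and fell by 1.59 with DZNep (adjusted p = 0.00181) and by 1.51 with shEZH2 (adjusted p = 0.016), by limma. RN7SK, which holds the elongation factor P-TEFb inactive, fell by 1.45 with DZNep (adjusted p = 0.00904, limma), and DLEU1 by 1.41 (adjusted p = 0.00297, limma).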

How the data were processed

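RNA-Seq libraries of 6 OVCAR8 samples, 2 each of Ctrl, DZNep and shEZH2, were analysed, with groups and replicate numbers from the sample labels. The authors extracted total RNA with TRIzol, removed ribosomal RNA, made stranded libraries, used fastp to trim the reads and STAR to align them (GRCh38, GENCODE v37), and quantified genes with RSEM. The versions of STAR and RSEM and the strand setting of RSEM are not given in the sources used here. The deposited values are a score per gene: they are whole numbers, and each sample adds up to nearly the same total. Scaling and rounding are inferred from this. The paper does not state how it was done or whether gene length entered. The deposit calls them counts, but the totals show that they are not, so limma replaced the planned edgeR test. Depth is unknown, so no counting interval is given.

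TMM factors (30% of log ratios and 5% of mean values trimmed at each end) were computed without weights. Values were taken as log2(value + 1), which understates changes of low genes, for the 9671 genes with at least 10 in at least 2 samples. All 6 samples entered 1 limma fit (version 3.58.1, R 4.3.3, eBayes with a trend). P-values are two-sided and adjusted by Benjamini-Hochberg over the tested genes. The fit was tested on simulated data. The contrasts with Ctrl share their control samples. Same-numbered samples of Ctrl and DZNep deviated together (correlation over tested genes 0.786). Those of Ctrl and shEZH2 (-0.024) and of DZNep and shEZH2 (-0.038) did not, so numbers were not treated as pairs in the main fit. The contrast of DZNep with Ctrl was thus unpaired although these samples deviated together. A paired fit of Ctrl and DZNep alone was not run. With a replicate block over all 6 samples, all 47 DZNep calls were kept and 4 other members were called. The close shEZH2 replicates entered the spread of every contrast, and a fit of only Ctrl and DZNep kept 39 of the 47 DZNep calls.

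Members, lists and tests were chosen with earlier results of these data known. Named members were MALAT1, NEAT1, GAS5 and TUG1, all SNHG and microRNA host members, for each contrast with Ctrl the 8 largest and 8 smallest changes among called members, up to 8 called antisense members whose partner was called, up to 8 members called in the direct comparison, and up to 4 called genes of each list. EZH2 was named as the target. Every other gene given with values was chosen after its values were seen. Some genes that this rule names are not reported here.

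Alternatives were size factors by median ratio, no rescaling, filters of at least 5 in 2 samples, a mean of at least 20 or none, pseudocounts of 0.5 and 5, limma without the trend, fits of only the groups compared, a replicate block, the paper's thresholds, shEZH2 samples averaged and counted as 1, and each sample left out. Names and positions came from RefSeq (GRCh38.p14) and GENCODE v44, because v37 was not used here. Plots used matplotlib 3.10.9 (Python 3.11.15).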

Additional observations from a re-analysis of the deposited data

How the results depend on the processing

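No called change of a member turned its direction under any alternative, whereas 16, 21 and 21 members that were not called took the other sign in at least 1 alternative (DZNep against Ctrl, shEZH2 against Ctrl and shEZH2 against DZNep). Of the calls, 32 of 47 for DZNep against Ctrl, 1 of 18 for shEZH2 against Ctrl and 1 of 17 for shEZH2 against DZNep were kept under all alternatives. Depth is unknown, and rounding and 2 samples a group limit the precision of all values. With a filter of at least 5 in 2 samples (160 members), 39 members were called higher and 44 lower with DZNep (median 0.0364), 6 higher with shEZH2, and 9 lower in shEZH2 than DZNep cells. With a mean of at least 20 (35 members), the counts were 6 higher and 15 lower with DZNep (median -0.37), 9 lower with shEZH2 (median -0.29), and 5 higher and 1 lower in shEZH2 than DZNep cells, and 0 pairs were called in opposite directions with DZNep, and there were too few pairs for a correlation. Both filters change how many members are tested. With no filter, 2 members were lower in shEZH2 than DZNep cells, and the correlation across pairs was 0.14 with DZNep and 0.0211 for shEZH2 against DZNep.

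With the values as deposited, 9 members were higher with shEZH2 and 9 lower in shEZH2 than DZNep cells, and with DZNep 2 pairs were called in the same direction and 1 in opposite directions. Median-ratio size factors gave 1 pair in the same direction with DZNep, and limma without the trend gave 1 such pair and 5 members higher with shEZH2. Fits of only the groups compared gave 8 members higher with shEZH2, 8 lower in shEZH2 than DZNep cells, 1 pair in the same direction with shEZH2, 0 in opposite directions with DZNep, and an EZH2 change of -0.63 with DZNep that was no longer called. The paper's thresholds gave 1 higher and 8 lower with shEZH2, 0 pairs in opposite directions with DZNep, and the same EZH2 change of -0.63, not called. With the mean of both shEZH2 samples entered as 1 sample, limma called 0 higher and 1 lower with shEZH2 (7 and 17 at an unadjusted P under 0.05), 1 higher and 0 lower in shEZH2 than DZNep cells (14 and 6 unadjusted), 0 pairs in opposite directions with DZNep, and neither EZH2 change (-0.63 and -1.12). Leaving out the 14 members that passed the filter through 1 group alone, an alternative chosen after the data were seen, left 3 lower in shEZH2 than DZNep cells. The cause of these changes was not tested, apart from the smaller number of members in the last.

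With the replicate number as a replicate block, 15 members were higher and 24 lower with shEZH2, 23 higher and 11 lower in shEZH2 than DZNep cells, and 2 pairs with DZNep and 3 with shEZH2 were called in the same direction. Same-numbered Ctrl and DZNep samples deviated together (correlation over tested genes 0.786), whereas shEZH2 shared only the numbers (-0.024 with Ctrl and -0.038 with DZNep).

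Leaving out each sample in turn gave 0 to 8 members higher and 1 to 20 lower with shEZH2, and 1 to 15 higher and 0 to 8 lower in shEZH2 than DZNep cells. EZH2 changed by -0.75 to -0.51 with DZNep and by -1.15 to -1.09 with shEZH2. Pairs in the same direction numbered 0 to 1 in either contrast with Ctrl and those in opposite directions 0 to 1 with DZNep, and the correlation across pairs ran from -0.0649 to 0.1235 with DZNep and from -0.2736 to 0.1771 for shEZH2 against DZNep.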
